A study of Mus musculus with 10 samples.

Results

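The insulin-like growth factor (IGF) genes described here were 2 ligands (Igf1 and Igf2), 2 receptors (Igf1r and Igf2r) and 6 binding proteins (Igfbp2, Igfbp3, Igfbp4, Igfbp5, Igfbp6 and Igfbp7). They were taken by symbol, and all 10 were found among the 35705 mouse genes of the table and among the 13841 genes tested. Messenger RNA was measured by sequencing of total RNA from the medial knee cartilage caps of 5 wild-type mice and 5 mice null for the microRNA gene Mir324, with 1 library per mouse. The labels call the tissue articular cartilage and its cells chondrocytes. They give no strain, age, sex, litter or sequencing batch for either genotype and do not describe how the null allele was made, so differences between the groups in any of these cannot be told apart from the genotype. No treatment is named for either group. The level of Mir324 was not analysed here, and the labels stand unchecked on the targeted gene.

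Igf1 and Igf2 are small secreted hormones related to insulin that act on growth in cartilage and bone. Igf1r, a receptor tyrosine kinase, carries their signal through adaptor proteins to the PI3K-AKT-mTOR and RAS-ERK pathways, whereas Igf2r, the mannose 6-phosphate receptor, binds Igf2 and delivers it to the lysosome. The binding proteins hold the ligands outside the cell and are cut by proteases that release the ligand, and in cartilage the Igf1 signal promotes synthesis of matrix.

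MicroRNAs pair through their seed, bases 2 to 8, with messenger RNAs. The 2 mature products of Mir324 are shown because both come from the gene named in the null genotype, with the seed in capitals. The sequences and positions are from RefSeq (GRCm38.p6, 5′ to 3′) and lie at chr11:70012060-70012082 for the 5p arm and chr11:70012095-70012114 for the 3p arm, plus strand.

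miR-324-5p: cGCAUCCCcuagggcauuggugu

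miR-324-3p: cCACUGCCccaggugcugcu

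A match of 7 bases to a seed was searched for in the longest annotated 3′ untranslated region of each gene. It was found in 5 of the 10 IGF genes. The matches to the 5p seed were in Igf1 and Igfbp5, and those to the 3p seed were in Igf1r (3 matches), Igf2 (2 matches) and Igf2r. Of the 12601 genes with a 3′ untranslated region searched in this way, 8.5% held the 5p match and 15.4% held the 3p match. The share of genes with either match was not counted, so the 5 of 10 has no like share beside it. The regions with a match were 1304 to 7267 bases long and those without were 209 to 2813 bases, and longer regions offer more places for a match. Igfbp3 held only a match of 6 bases to the 5p seed, and Igfbp2, Igfbp4, Igfbp6 and Igfbp7 held neither match. The sites are printed on the gene's own strand with the paired bases in capitals. A match is a description of the letters and not a measured site of action.

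Igf1 (5p, chr10:87932256-87932262, plus strand): attcatctgtcactGGGATGCcacc

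Igfbp5 (5p, chr1:72860158-72860164, minus strand): tgcgggcacagaaaGGGATGCctcc

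Igf1r (3p, chr7:68227572-68227578, plus strand): gagccgcccgcccaGGCAGTGgatc

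Igf1r (3p, chr7:68231105-68231111, plus strand): agcccacctcttttGGCAGTGcctg

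Igf1r (3p, chr7:68233124-68233130, plus strand): tcttgtgggtgttgGGCAGTGtgca

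Igf2 (3p, chr7:142652383-142652389, minus strand): aggggtgggtggggGGCAGTGgggg

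Igf2 (3p, chr7:142651872-142651878, minus strand): tggagggggcgtggGGCAGTGtccc

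Igf2r (3p, chr17:12682679-12682685, minus strand): aggggctgtgctagGGCAGTGtccc

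Levels are in TPM, the abundance of transcripts relative to a fixed library total after scaling to length, which can be compared between genes, and each library held 13386 to 14299 genes at 1 TPM or more. The depth of the libraries is unknown. Haemoglobin transcripts took 11.2 to 19.7% of the TPM in wild-type libraries and 15.8 to 26.1% in null libraries. The labelled chondrocytes were represented by 7 of the 9 chondrocyte markers above the level needed for testing, whereas Matn3 and Col9a1 were below it. Markers of other cells were abundant, with summed levels of 2553 to 10626 TPM for 10 osteoblast and osteocyte genes and 53690 to 110180 TPM for 6 neutrophil genes. The tissue was therefore a mixture, and in bulk RNA fewer cells of a type and less RNA per cell cannot be told apart. The osteoblast and osteocyte sum was 4903 to 10626 TPM in wild-type and 2553 to 5482 TPM in null libraries, and wild-type replicate 1 had the highest sums for the chondrocyte, osteoblast and fibroblast lists.

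Binding proteins made up most of the IGF family RNA. Their summed level was 677 ± 92.6 TPM (SD, n = 5) in wild-type and 598 ± 101 TPM (SD, n = 5) in null mice, against 29.5 ± 5.10 and 29.8 ± 4.06 TPM for the ligands. Binding protein RNA thus stood at 14.9 to 34.3 times ligand RNA over the 10 mice, with the highest ratio in wild-type replicate 1 and the next at 23.9. Igfbp4 and Igfbp7 together held 73.3 to 87.4% of the binding protein TPM. The sums count non-coding transcripts, which held 60.5% of Igfbp4 TPM in wild-type and 62.6% in null mice. Igf1 held 90.3 to 95.4% of the ligand TPM.

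The mean levels over all 10 mice, in descending order, were 316 TPM for Igfbp4, 208 for Igfbp7, 74.9 for Igfbp5, 27.6 for Igf1, 23.5 for Igfbp6, 14.6 for Igfbp3, 9.30 for Igf1r, 8.72 for Igf2r, 2.02 for Igf2 and 1.23 for Igfbp2. The steps from Igfbp7 to Igfbp5, from Igfbp5 to Igf1 and from Igf2r to Igf2 were clear of the spread, with no overlap between any of the 10 libraries. The other neighbours overlapped in range. Within single mice, Igfbp4 exceeded Igfbp7 in 9 of 10, whereas Igf1 exceeded Igfbp6 in 6 of 10 and Igf1r exceeded Igf2r in 7 of 10. These levels count non-coding transcripts. In coding transcripts alone Igfbp4 was at 86.4 to 150.3 TPM over the 10 mice. That was below the main coding transcript of Igfbp7, at 156 to 344 TPM, so the order of these 2 genes turned.

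**Figure D1:**
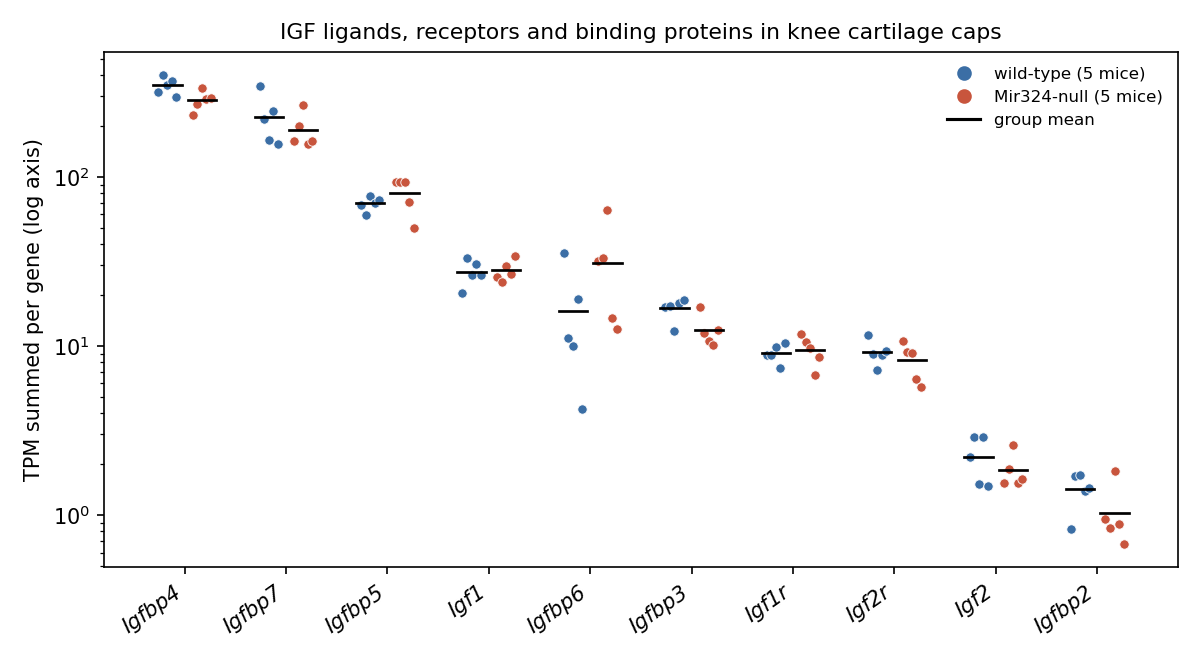
TPM of the 10 IGF genes in each mouse on a log axis, with points for single libraries by genotype and the mean of each group. Igfbp4 and Igfbp7 lie at the top, Igf2 and Igfbp2 at the bottom, and the points of Igfbp6 spread most.

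Genotypes were compared with limma on log2(TPM + 1), with Benjamini-Hochberg adjustment over all 13841 genes, a scale that understates the change of low genes. No IGF gene passed an adjusted p of 0.05, as for the whole table, where 0% passed (0 of 13841). In null mice, 4 of the 10 were above and 6 below the wild-type level, with a median log2 difference of -0.16 against -0.045 over all genes tested. An unadjusted p under 0.05 was found for 2 of the 10, Igfbp3 and Igfbp4, both lower. Over all genes the share at that level was 11.6% in either direction and 7.30% in the lower direction, so the count exceeds the background share by about 1 gene. Complete separation of the genotypes was seen for 0 of the 10 genes and for 1.94% of all genes. Of the 1603 genes at an unadjusted p under 0.05, 63.1% were lower in null mice. That share was 48.5% after median ratio scaling, 51.2% after quantile normalization and 32.2% after haemoglobin genes were left out of the total.

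**Figure D2:**
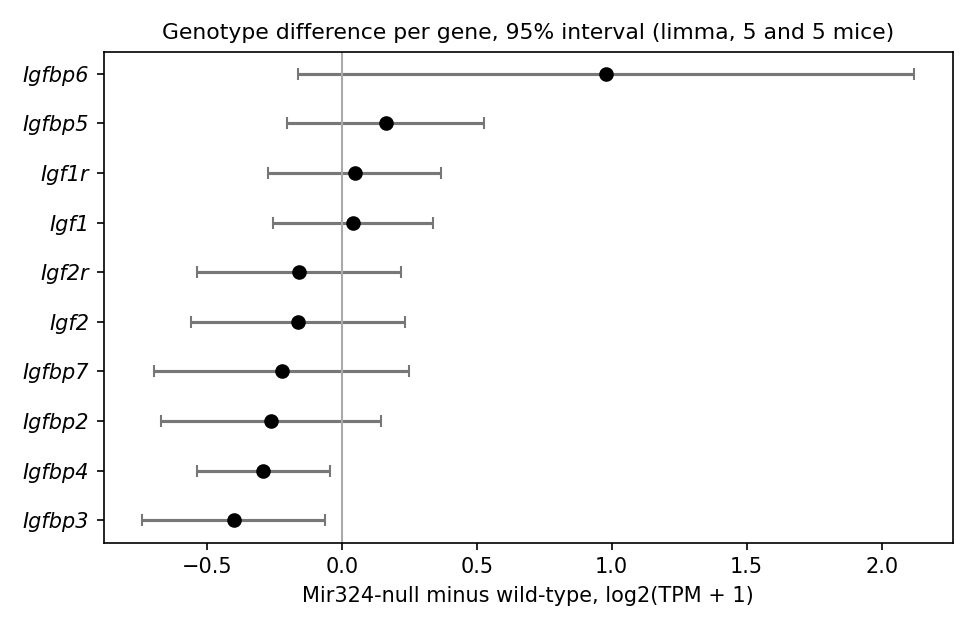
Null minus wild-type difference in mean log2(TPM + 1) for each IGF gene, with the 95% confidence interval from limma. The intervals of Igfbp3 and Igfbp4 lie below 0 before adjustment, and that of Igfbp6 is the widest.

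Igf1 (ENSMUSG00000020053, chr10:87858265-87937042, plus strand, GRCm38), the main growth-promoting ligand, did not differ between genotypes beyond the spread. Its level was 20.7, 32.9, 26.3, 30.3 and 26.1 TPM in wild-type replicates 1 to 5 and 25.5, 24.0, 29.7, 26.6 and 34.0 TPM in the null replicates. The groups overlapped, with the lowest value in wild-type replicate 1 and the highest in null replicate 5. Null minus wild-type, the log2 difference was 0.041 with a 95% interval of -0.26 to 0.34 (limma adjusted p = 0.953), and its sign turned without wild-type replicate 1 (-0.051) or null replicate 5 (-0.030).

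The Igf1 transcript with the long 3′ untranslated region, which holds the 5p match printed above, was tested on its own. This transcript, Igf1-202, is 7052 bases long and held 21.3% of the Igf1 TPM, or 68.7% when TPM was weighted by length. It was at 6.33, 7.11, 7.08, 6.76 and 5.34 TPM in wild-type mice and at 4.88, 5.42, 5.65, 5.26 and 5.09 TPM in null mice. Wild-type replicates 1 to 4 lay above every null value, and wild-type replicate 5 lay within the null range. On the log2 scale the difference was -0.26 ± 0.12 (SE). By limma the unadjusted p was 0.0514 and the adjusted p over all single transcripts was 0.664. The exact permutation p, two-sided and unadjusted, was 0.0238. The direction was thus towards lower levels in null mice. The more abundant Igf1-205 (798 bases, 35.6% of the Igf1 TPM) and Igf1-206 (651 bases, 29.9%) are much shorter, and averaged 9.81 and 7.58 TPM in wild-type against 9.85 and 8.93 TPM in null mice.

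Igf1 RNA also differs by splicing at the end of its coding region and by its first exon. The 4 transcripts with the exon of 52 bases at chr10:87915298-87915349, which sets the E peptide of the precursor, held 38.0 ± 6.60% (SD, n = 5) of Igf1 TPM in wild-type and 42.3 ± 6.75% (SD, n = 5) in null mice. The 3 transcripts that start at the upstream first exon held 35.2 ± 4.73% and 30.3 ± 3.21%. The TPM of both sets overlapped between genotypes.

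Igf2 (ENSMUSG00000048583, chr7:142650766-142666816, minus strand), an imprinted ligand of fetal growth, was near the level needed for testing. It was at 2.21, 2.91, 1.53, 2.91 and 1.49 TPM in wild-type and 1.56, 1.88, 2.58, 1.54 and 1.64 TPM in null mice. The null values lay within the wild-type range. The mean log2 difference was -0.16 with an interval of -0.56 to 0.24 (limma adjusted p = 0.812), and it ran from -0.25 to -0.083 when each mouse was left out in turn. The non-coding transcript Igf2-208 was assigned 44.3% of the Igf2 TPM on average, with a share from 0.00045 to 89.9% between mice, so the split of this gene among transcripts was unstable.

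Igf1r (ENSMUSG00000005533, chr7:67952827-68233668, plus strand), the signalling receptor, was at 8.83, 8.84, 9.89, 7.45 and 10.4 TPM in wild-type and 11.8, 10.6, 9.78, 6.77 and 8.63 TPM in null mice. The highest and lowest values were both in null mice. The log2 difference was 0.048 with an interval of -0.27 to 0.37 (limma adjusted p = 0.948), and its sign turned without null replicate 1 (-0.028) or wild-type replicate 4 (-0.014).

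Igf2r (ENSMUSG00000023830, chr17:12682406-12769664, minus strand), the receptor that clears Igf2, was at 11.6, 9.02, 7.16, 8.82 and 9.37 TPM in wild-type and 10.7, 9.24, 9.14, 6.42 and 5.73 TPM in null mice. Null replicates 4 and 5 lay below all other mice and the rest were mixed. Null minus wild-type, the log2 difference was -0.16 with an interval of -0.54 to 0.22 (limma adjusted p = 0.806), and -0.051 without null replicate 5.

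Summed per gene, the log2 differences of the 5 genes with a 7-base match lay between -0.16 and 0.16. Of these, 3 were higher and 2 lower in null mice. Igf1 and Igf1r, counted as higher, turned sign when single mice were left out. The Igf1 transcript in which the match was found, Igf1-202, averaged lower in null mice (log2 difference -0.26). The log2 differences of the 5 genes without a 7-base match lay between -0.40 and 0.98, with 1 higher and 4 lower. Over all genes tested 60.0% were lower in null mice. Whether a match bears on the direction was not tested.

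Igfbp2 (ENSMUSG00000039323, chr1:72824503-72852474, plus strand), a binding protein with preference for Igf2, was the least abundant. It was at 0.828, 1.71, 1.73, 1.39 and 1.45 TPM in wild-type and 0.950, 0.835, 1.83, 0.883 and 0.675 TPM in null mice. Wild-type replicate 1 was low and null replicate 3 high within their groups. On the log2 scale the difference was -0.26 with an interval of -0.67 to 0.15 (limma adjusted p = 0.646). It was -0.46 with a pseudocount of 0.1, and the pseudocount matters at these low levels.

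Igfbp3 (ENSMUSG00000020427, chr11:7206086-7213923, minus strand), the main carrier of IGF in blood, was lower in 4 of 5 null mice than the wild-type mean. It was at 17.1, 17.3, 12.2, 18.1 and 18.8 TPM in wild-type and 17.1, 11.9, 10.7, 10.1 and 12.5 TPM in null mice. Wild-type replicate 3 was at the null level and null replicate 1 at the wild-type level. The mean log2 difference was -0.40 ± 0.15 (SE), with a limma adjusted p of 0.366 and an exact permutation p of 0.0476, where 0.00794 is the smallest that 5 against 5 can give. Leaving out 1 mouse or changing the scaling gave log2 differences of -0.51 to -0.32 and adjusted p from 0.181 to 0.607.

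Igfbp4 (ENSMUSG00000017493, chr11:99041244-99054392, plus strand), which mostly restrains IGF action and is cut by the protease Pappa, showed 5 of 5 null mice under the average of the wild-type mice. It was at 318, 400.2, 350.8, 370 and 298 TPM in wild-type and 232, 269, 337, 290.2 and 293 TPM in null mice. Null replicate 3 alone among the null mice exceeded the lowest wild-type mouse. The log2 difference was -0.29 ± 0.11 (SE), with a limma adjusted p of 0.366 and an exact permutation p of 0.0397. The difference was -0.20 after haemoglobin genes were left out of the total, and its unadjusted p was then 0.164.

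The Igfbp4 RNA was spread over coding and non-coding transcripts. Igfbp4-201, the full transcript of 3831 bases with 765 coding bases, held 37.6% of the TPM and 74.6% when weighted by length. It was at 134 ± 16.4 TPM (SD, n = 5) in wild-type and 104 ± 12.3 TPM (SD, n = 5) in null mice, with a log2 difference of -0.36 ± 0.11 (SE) and a limma adjusted p of 0.579. The processed transcripts without a coding region held 60.5% of Igfbp4 TPM in wild-type and 62.6% in null mice. Of these, Igfbp4-202 was at 132 TPM against 103 TPM, and Igfbp4-203 at 77.4 against 74.8 TPM. In the coding transcripts summed, the values were 148, 150.3, 134, 144 and 109 TPM in wild-type and 86.4, 101, 124, 108 and 111 TPM in null mice. Wild-type replicate 5 was the only wild-type mouse within the null range. In a fit of coding transcripts alone the log2 difference was -0.36 ± 0.12 (SE) with a limma adjusted p of 0.234. Over all members, 19 transcripts held at least 10% of their gene's TPM and 15 of these were abundant enough to test. Of the 15, 3 (Igfbp3-201, Igfbp4-201 and Igfbp4-202) had an unadjusted p under 0.05, against 7.51% of 31817 single transcripts, and 0 passed adjustment. They belong to the 2 genes already named at that level, Igfbp3 and Igfbp4, and are not further calls. Igfbp3-201 alone held 99.0% of the Igfbp3 TPM. The 7.51% covers all transcripts tested, not only those with at least 10% of their gene's TPM.

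**Figure D3:**
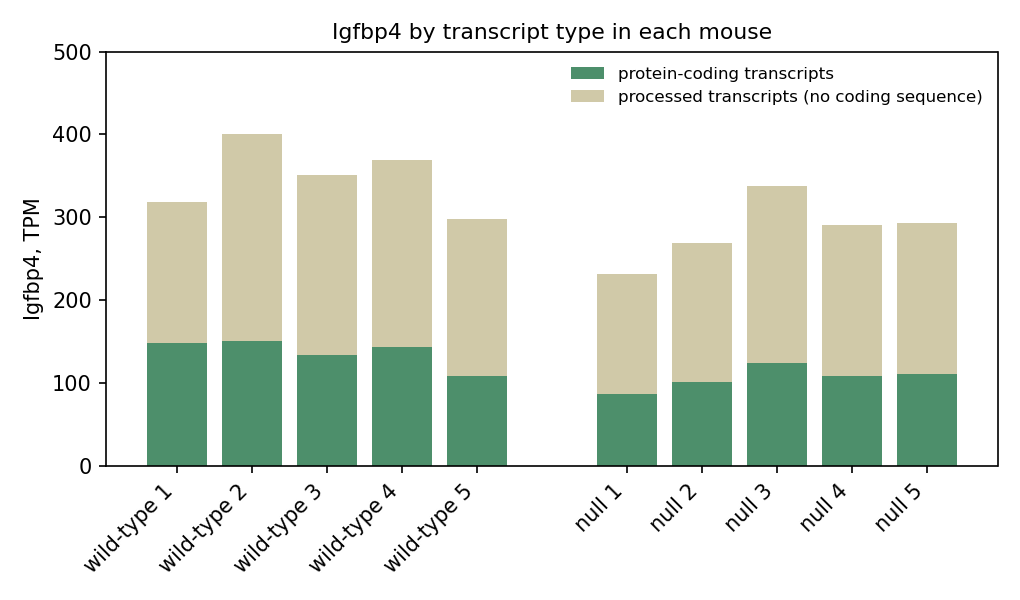
Igfbp4 TPM in each mouse, 1 bar per library, stacked as protein-coding transcripts (lower part) and processed transcripts with no coding sequence (upper part). The coding part is at 109 to 150.3 TPM in wild-type and 86.4 to 124 TPM in null mice.

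Igfbp5 (ENSMUSG00000026185, chr1:72857932-72874884, minus strand), abundant in bone and bound to matrix, was at 68.3, 59.6, 77.4, 70.4 and 72.8 TPM in wild-type and 93.2, 93.3, 92.8, 71.1 and 49.7 TPM in null mice. Null replicates 1 to 3 lay above every wild-type mouse and null replicate 5 below them all. Null minus wild-type, the log2 difference was 0.16 with an interval of -0.20 to 0.53 (limma adjusted p = 0.786). Leaving out each mouse in turn gave 0.098 to 0.32. The highest was without null replicate 5, with a limma unadjusted p of 0.0156 and an adjusted p of 0.524. No other alternative gave Igfbp5 an unadjusted p under 0.05.

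Igfbp6 (ENSMUSG00000023046, chr15:102144362-102149511, plus strand), which prefers Igf2, varied most between mice. It was at 35.7, 11.1, 10.0, 18.9 and 4.22 TPM in wild-type and 32.0, 32.9, 63.2, 14.6 and 12.5 TPM in null mice. The highest library held 15.0 times the lowest, and the within-genotype SD on the log2 scale was 0.985, above that of 97.6% of genes tested. Null values were high in replicates 1 to 3, yet wild-type replicate 1 exceeded 4 of the 5 null mice. On the log2 scale the difference was 0.98 with an interval of -0.16 to 2.12 (limma adjusted p = 0.507, exact permutation p = 0.159). It ranged from 0.63 without wild-type replicate 5 to 1.33 without wild-type replicate 1.

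Igfbp7 (ENSMUSG00000036256, chr5:77349240-77408041, minus strand), a secreted relative with low affinity for IGF, was at 345, 221, 164, 244 and 156 TPM in wild-type and 162, 199, 264, 157 and 163 TPM in null mice. Wild-type replicate 1 was the highest of all, and null replicate 3 the highest null value. The mean log2 difference was -0.22 with an interval of -0.69 to 0.25 (limma adjusted p = 0.771), and -0.056 without wild-type replicate 1.

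Igfbp6 and Igfbp7 varied together between mice. Their Pearson's r of deviations from the genotype mean, 0.90, was the highest among all pairs of the IGF genes. It cannot be told apart from selection among those pairs. Without wild-type replicate 1 it was 0.85, and Igf2 with Igfbp7 was higher, at 0.95. Among wild-type mice the order of both Igfbp6 and Igfbp7 from high to low was replicates 1, 4, 2, 3 and 5. Among null mice replicates 3 and 2 were highest for both. The level of Igfbp7 was 9.66 to 36.9 times that of Igfbp6 in wild-type mice and 4.18 to 13.0 times in null mice. The summed level of the fibroblast and synovium markers was 513 to 1883 TPM in wild-type and 489 to 1170 TPM in null mice. The sum is weighted to its abundant genes, and 4 of the 6 markers were higher in null mice, with a median log2 difference of 0.39. Wild-type replicate 1 and null replicate 3 were at the top of their groups for this sum, as for both genes, and also for the chondrocyte sum (6054 and 2855 TPM) and the osteoblast and osteocyte sum (10626 and 5482 TPM). For Igfbp4 the highest mouse (wild-type replicate 2) and the lowest (null replicate 1) were also the highest and lowest for the summed marrow stroma markers, of which 5 of 5 were lower in null mice (664 to 947 TPM in wild-type, 568 to 846 TPM in null). The mice between them did not keep the same order. The lowest wild-type mouse was replicate 1 for this sum and replicate 5 for Igfbp4, and the highest null mouse was replicate 5 for the sum and replicate 3 for Igfbp4. The part of these cell types in the results was not tested.

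**Figure D4:**
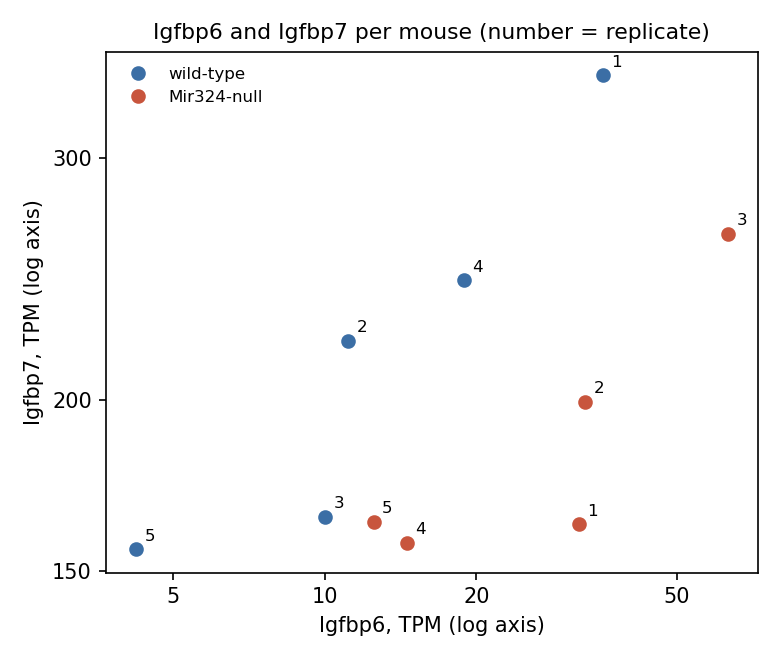
Igfbp7 against Igfbp6 TPM on log axes, with 1 point per mouse by genotype. Numbers are replicates. The wild-type mice follow the same order on both axes, and null replicate 1 is high in Igfbp6 without being high in Igfbp7.

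The promoters of this pair are shown because the 2 genes moved together across mice. Each runs from 250 bases before to 50 after the RefSeq start (GRCm38.p6, 5′ to 3′ on the gene's strand). The motifs searched on both strands were the GC box GGGCGG (35.7% of 32851 promoters, 6 of the 14 promoters of IGF genes), TATAAA (13.6% and 2 of 14), the AP-1 site TGANTCA (7.81% and 2 of 14) and the E box CACGTG (7.15% and 2 of 14), and no matches overlapped in these windows. Capitals mark the matches. The Igfbp7 promoter (chr5:77407996-77408295, minus strand) held 4 GC boxes and 33 CpG dinucleotides at 73.3% GC. The Igfbp6 promoter (chr15:102143936-102144235, plus strand) held none, 1 TATAAA match on the opposite strand and 8 CpG dinucleotides at 49.7% GC, against a median of 7 over all promoters. This window ends before the Igfbp6 gene start given above, which is from GENCODE, so it describes the RefSeq start, and which start was in use was not tested.

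Igfbp7: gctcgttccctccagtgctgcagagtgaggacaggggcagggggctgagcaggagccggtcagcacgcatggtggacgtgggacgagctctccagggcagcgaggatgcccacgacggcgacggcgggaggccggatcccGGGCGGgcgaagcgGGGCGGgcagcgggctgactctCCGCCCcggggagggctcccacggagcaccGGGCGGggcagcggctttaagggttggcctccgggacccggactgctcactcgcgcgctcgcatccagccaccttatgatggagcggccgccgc

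Igfbp6: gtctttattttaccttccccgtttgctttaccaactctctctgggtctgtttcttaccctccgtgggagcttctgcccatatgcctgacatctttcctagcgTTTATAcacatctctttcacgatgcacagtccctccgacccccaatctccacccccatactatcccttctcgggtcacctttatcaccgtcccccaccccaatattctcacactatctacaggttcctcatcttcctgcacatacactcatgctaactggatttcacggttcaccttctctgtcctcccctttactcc

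Around the ligands, 6 of 14 listed genes that act on IGF availability were tested. In null mice 1 was higher (Igf2bp2) and 5 were lower, with a median log2 difference of -0.45. Over all genes tested 60.0% were lower, with a median of -0.045. None passed adjustment. An unadjusted limma p under 0.05 was found for 2 of the 6, Stc2 and Pappa, both lower, against 7.30% of all genes in that direction. Both also separated completely, where 1.06% of all genes lay wholly lower. Igfbp1 and Igfbpl1 were listed at 0 in all libraries, and Pappa2, Stc1, Igfals, Igf2bp1 and Igf2bp3 were too low to test. H19, also on the list, was not found by its symbol.

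Pappa (chr4:65124174-65357509), the protease that cuts Igfbp4, was at 3.17, 3.29, 2.65, 2.73 and 2.57 TPM in wild-type and 1.59, 2.30, 2.47, 1.90 and 1.47 TPM in null mice. The log2 difference was -0.41 ± 0.14 (SE), with a limma adjusted p of 0.342 and an exact permutation p of 0.00794. Stc2 (chr11:31357307-31370074), a secreted inhibitor of Pappa, was at 11.6, 4.65, 4.66, 7.53 and 5.00 TPM in wild-type and 1.98, 2.16, 3.21, 2.83 and 3.09 TPM in null mice. All null mice lay below all wild-type mice for both genes. The log2 difference of Stc2 was -1.01 ± 0.23 (SE), with a limma adjusted p of 0.277. Igfbp4, its protease and the inhibitor of that protease were thus all lower in null mice, without an adjusted p that passed. Several marker lists were lower in null mice as well, with 10 of 10 osteoblast and osteocyte genes (median log2 difference -0.90), 5 of 5 osteoclast genes (-0.96), 5 of 5 adipocyte genes (-0.67) and 6 of 7 chondrocyte genes (-0.65). The part of these cells in the differences was not tested. Htra1, a protease that cuts Igfbp5, was at 113 ± 57.6 TPM (SD, n = 5) and 75.6 ± 25.3 TPM (SD, n = 5), with overlap.

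Of the 12 receptor and adaptor genes 11 were tested, with 4 higher, 7 lower and a median log2 difference of -0.0097. Median ratio scaling turned this balance to 7 higher against 4 lower, and both quantile normalization and a total without haemoglobin genes gave 8 against 3. Of the 11, 2 were lower at an unadjusted p under 0.05, against 7.30% of all genes. Grb14, an adaptor that restrains the insulin receptor, was at 10.3, 8.49, 5.79, 10.1 and 4.29 TPM in wild-type and 3.08, 3.25, 4.46, 3.37 and 4.19 TPM in null mice (log2 difference -0.86 ± 0.21, SE; limma adjusted p = 0.277). Only null replicate 3 exceeded the lowest wild-type mouse. Irs1, the docking protein below Igf1r, was at 1.91 ± 0.324 and 1.20 ± 0.376 TPM (SD, n = 5 each), with a log2 difference of -0.41 ± 0.16 (SE) and a limma adjusted p of 0.368. The unadjusted p of Irs1 was 0.025 and exceeded 0.05 in 6 of 17 alternatives, to 0.075 at most. Its relative Irs2 was at 7.30 and 7.32 TPM, and Insr at 6.94 and 6.92 TPM.

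In the PI3K, AKT and mTOR arm, 22 of 22 genes were tested, with 9 higher, 13 lower and a median of -0.019. The balance was 13 higher and 9 lower after median ratio scaling or quantile normalization, and 14 higher and 8 lower without haemoglobin genes. The 2 at an unadjusted p under 0.05 were both higher in null mice, where 4.28% of all genes were, and both encode FOXO transcription factors, which AKT holds out of the nucleus. The third FOXO gene of the list, Foxo1, went the other way, at 7.45 to 12.3 TPM in wild-type and 6.07 to 8.71 TPM in null mice, with a log2 difference of -0.32 and a limma adjusted p of 0.441. Foxo3 was at 25.5, 34.8, 36.2, 30.0 and 33.7 TPM in wild-type and 41.0, 39.6, 37.1, 41.2 and 38.8 TPM in null mice. All null mice lay above all wild-type mice, as for 0.881% of all genes. Null minus wild-type, the log2 difference was 0.30 ± 0.10 (SE) with a limma adjusted p of 0.337. Foxo4 was at 21.1 ± 1.70 and 25.5 ± 1.78 TPM (SD, n = 5 each), with a log2 difference of 0.26 ± 0.091 (SE) and a limma adjusted p of 0.338. The erythroid markers, 5 of 5 higher in null mice (summed 75103 to 133192 TPM in wild-type and 107018 to 176239 TPM in null), moved in the same direction, and their part was not tested.

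In the RAS and ERK arm 9 of 9 genes were tested, with 5 higher, 4 lower and none at an unadjusted p under 0.05. The kinase Mapk3, the most abundant gene of the arm, was level between genotypes at 117 and 116 TPM, and the sign of its log2 difference (-0.018) turned under median ratio scaling, quantile normalization and the total without haemoglobin genes.

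The growth hormone axis, which drives Igf1 in liver and bone, had 8 of 8 genes tested, with 3 higher, 5 lower and a median of -0.22. The share of lower genes was 60.0% over all genes tested, with a median of -0.045, so the balance was near the background. An unadjusted limma p under 0.05 was found for 2 of the 8, Ghr and Socs2, both lower, against 7.30% of all genes. Ghr, the growth hormone receptor, was at 19.6, 12.2, 14.2, 18.1 and 10.0 TPM in wild-type and 7.98, 10.0, 13.9, 8.21 and 7.55 TPM in null mice (log2 difference -0.58 ± 0.20, SE; limma adjusted p = 0.338). Each null mouse lay under the wild-type average, and the groups overlapped. Socs2, the feedback inhibitor of this receptor, was at 12.2 ± 2.26 and 6.90 ± 0.573 TPM (SD, n = 5 each) without overlap. Of all genes 1.06% lay wholly lower in this way, and the limma adjusted p of Socs2 was 0.277. Igf1 itself was level, as given above.

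**Figure D5:**
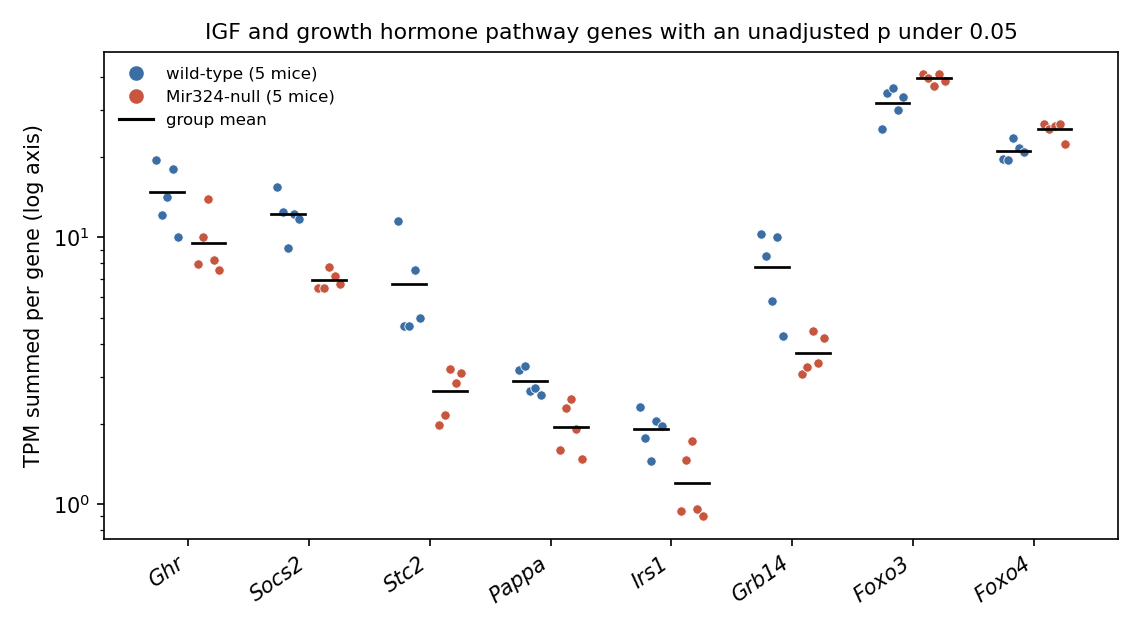
TPM on a log axis of the 8 pathway genes with an unadjusted p under 0.05, with 1 point per mouse by genotype and a bar at the group mean. They were picked by that p from lists with 6, 11, 22, 9 and 8 genes tested, and 11.6% of all genes tested reached it. Null mice lie wholly below wild-type mice for Socs2, Stc2 and Pappa and wholly above for Foxo3, and the other genes overlap.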

How the data were processed

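RNA from 10 mice, 5 per genotype, was sequenced after low-input library preparation (per the labels' protocols). The authors deposited 1 table of TPM per transcript. The submitters' processing notes name kallisto, DESeq2 and GRCh38, yet the transcripts carry mouse Ensembl identifiers, and the index, its build and the versions are not given in the sources used here. Of 116912 transcripts, 115440 matched GENCODE M21 (GRCm38). The 1472 others, at most 0.356% of a library's TPM, were left out, and TPM was summed per gene. TPM carries no read counts, so depth and counting error are unknown.

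Genes averaging 1 TPM or more over the mice were tested on log2(TPM + 1) with limma 3.58.1 (lmFit and eBayes with trend, R 4.3.3), two-sided, with Benjamini-Hochberg adjustment over all 13841 genes, and a threshold of 0.05. The fit was tested on simulated data, drawn independently for each gene. Such data do not copy the shared tissue composition and fixed total of the libraries, so the error rates here were not tested. Single values were compared by exact permutation over all splits into 5 and 5. The 10 IGF genes and the pathway and marker lists were chosen with earlier results of these data known. Named beside the members were list genes at an unadjusted p under 0.05 or with groups apart (at most 4 per list, otherwise the 2 most abundant, of which 1 is not reported here), the 3 genes most like each member, and transcripts with at least 10% of a member's TPM. A further few list genes (Htra1, Insr, Irs2, Foxo1, Igf2bp2) were named after their values were seen. Alternatives were other pseudocounts, filters, scalings, a replicate block, coding transcripts only, each mouse left out, and, added after seeing the data, single transcripts.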

Additional observations from a re-analysis of the deposited data

Results flagged for a closer look

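Within groups of 5 mice, 38 groups were examined for a mouse far from the others, and 2 mice stood apart. Chance alone marks about 1 in 20 groups. Igfbp2 was at 1.83 TPM in null replicate 3, where the other null mice were at 0.675 to 0.950 TPM. Igfbp3 was at 12.2 TPM in wild-type replicate 3, below the other wild-type mice at 17.1 to 18.8 TPM, and without it the log2 difference was -0.50 with a limma adjusted p of 0.181.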

How the results depend on the processing

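The number of IGF genes at an unadjusted p under 0.05 in limma, 2 as reported, was 0 after median ratio scaling, 1 (Igfbp3) after quantile normalization, 1 (Igfbp3) with haemoglobin genes left out of the total, and 0 (without wild-type replicate 4) to 4 (without null replicate 5) when each mouse was left out. Genes passing an adjusted p of 0.05 numbered 0 to 1 over all genes when each mouse was left out, 0 for single transcripts, and 0 of the IGF genes in each alternative run. IGF genes with groups apart numbered 0 to 1 (Igfbp4 without null replicate 3, when 5.33% of all genes were apart). With the replicate block, 3 IGF genes (Igfbp3, Igfbp4 and Igfbp6) and 1168 genes in all had an unadjusted p under 0.05. The labels do not state a pairing, and mice with the same number correlated at -0.14 to 0.056. With each mouse left out the log2 difference reached 0.11 for Igf1, 0.15 for Igf1r and -0.096 for Mapk3. It turned sign for Igf1 (-0.030 without null replicate 5, -0.051 without wild-type replicate 1), Igf1r (-0.028 without null replicate 1, -0.014 without wild-type replicate 4) and Mapk3 (0.045 with median ratio scaling, 0.00011 with quantile normalization, 0.072 without haemoglobin, 0.011, 0.060, 0.016 and 0.037 without null replicates 4 and 5 and wild-type replicates 2 and 5). The cause was not tested. The other 326 single-gene values kept their direction and none passed adjustment. The unadjusted call of Irs1 was lost with the replicate block and without null replicates 1, 4 or 5 or wild-type replicates 1 or 4. Igf2, Igfbp2, Stc2, Pappa and Irs1 gave no value with a minimum of 5 TPM.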

Other observations

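The genes whose levels followed each IGF gene most closely over the 10 mice were chosen by Pearson's r of deviations from the genotype mean, among 10325 genes averaging 5 TPM or more. The values are descriptions from libraries that share tissue composition and a fixed total, with no test. Picking the highest r among 10325 genes over 10 mice gives high values even for unrelated genes. How high such a search reaches without any tie was not tested, so the named genes cannot be told apart from selection. Igfbp7 followed Lzts2 (r = 0.99), Jund (0.99) and Ctnnb1, which encodes beta-catenin (0.99). Igfbp6 followed Dgcr6 (r = 0.98), Lamc1, a laminin chain of basement membranes (0.95), and Pygm (0.95). Igf2 followed Fbln5, an elastic fibre protein (r = 0.95), Fscn1 (0.94) and Pltp (0.94). Igf2r followed Ncam1 (r = 0.97), Ctdspl (0.97) and Eno1 (0.97).

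Igfbp4 followed Gas6, a ligand of TAM receptors (r = 0.90), Chrdl1, a BMP antagonist (0.90), and Ndufc2 (0.88). Igfbp5 followed Ctbp2 (r = 0.96), Spag7 (0.95) and Plin3 (0.94). Igfbp3 followed Arid3b (r = 0.91), Gatad1 (0.90) and Iah1 (0.90). Igf1r followed Ighv1-9 (r = 0.93), Smim5 (0.92) and Mapk6 (0.91), Igfbp2 followed Sdhc (0.91), Ddx28 (0.89) and Hdac8 (0.87), and Igf1 followed Ube2b (0.87), Fam220a (0.85) and Slco2b1 (0.82). Rank for rank among the genes picked, r was lowest for Igf1 and highest for Igfbp7, and whether either exceeds selection was not tested.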
